A study of Mus musculus with 4 samples.

Results

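The 9 genes described here encode the enzymes that make and break down ornithine, citrulline and arginine: Nags, Cps1, Otc, Aldh18a1, Oat, Ass1, Asl, Arg1 and Arg2. These members were taken by symbol from the 31054 features measured in every cell, and all 9 were found. The set was chosen by the Otc and Arg2 levels of the irradiated and the adult library, both genes being lower in the former. Values of that comparison are therefore given below as description only. RNA was measured in single cells of mouse intestine, in 4 libraries with 1 library in each group. All 4 groups carried the Bmi1-GFP genotype, a reporter allele that marks cells transcribing Bmi1. They were embryos at E12.5, embryos at E17.5, adults, and irradiated adults. Cells were sorted by flow cytometry before capture, so the mix of cell types in each library is that of the sort and not of the tissue. The labels do not give the radiation dose, the time after irradiation, the age of the adults, the number of animals or the gates.

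In the intestine, citrulline is made from glutamine, glutamate and proline. Aldh18a1 and Oat, both mitochondrial, bring glutamate and proline to ornithine. Nags makes the activator of Cps1, Cps1 makes carbamoyl phosphate, and Otc joins it to ornithine to give citrulline. Ass1 and Asl turn citrulline into arginine in the cytosol. Arg1 (cytosolic) and Arg2 (mitochondrial) split arginine into ornithine and urea. In adult mammals the gut exports citrulline, which the kidney turns into arginine, while the intestine of suckling animals makes arginine itself.

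RefSeq gave a promoter window for 5 of the 9 members (Aldh18a1, Ass1, Nags, Oat and Otc). Otc and Oat are shown, since Otc is a gene that chose the set and the Oat level ran with it over the cell groups below. The bases printed lie 5′ of the outermost annotated start, in GRCm38.p6. Capitals mark matches to the letters TTTAT or their reverse complement ATAAA, the core bound by the intestinal factor CDX2.
Otc, chrX:10252055-10252229, + strand: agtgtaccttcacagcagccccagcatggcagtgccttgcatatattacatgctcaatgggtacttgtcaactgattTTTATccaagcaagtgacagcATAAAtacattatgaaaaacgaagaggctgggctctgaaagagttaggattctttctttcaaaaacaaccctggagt
Oat, chr7:132576399-132576648, - strand: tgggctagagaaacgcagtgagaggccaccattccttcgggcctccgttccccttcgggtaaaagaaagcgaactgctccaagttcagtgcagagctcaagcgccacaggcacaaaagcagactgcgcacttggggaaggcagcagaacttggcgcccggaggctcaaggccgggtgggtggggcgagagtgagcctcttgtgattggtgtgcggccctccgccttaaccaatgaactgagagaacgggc
Otc held 2 such matches and Oat held none. In the full windows of 250 bases, Aldh18a1 held 1 match, and Ass1 and Nags held none. Of 32851 mouse promoter windows of that length, 37.3% held at least 1 match, so a match is common. None of the 5 windows held the GATA core AGATAA, the HNF4 core CAAAGTC or the HNF1 core GTTAAT. These letters occurred in 9.99%, 3.84% and 6.43% of all windows. Both strands were searched, and the matches found did not overlap.

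Kept cells had 500 or more detected genes and no more than 20% of their UMIs from mitochondrial genes. A UMI (unique molecular identifier) stands for 1 captured RNA molecule. After putative doublets were removed, 3031 to 4409 cells remained per library, with a median of 3607 to 18081.5 UMIs per cell. The adult library was the shallowest and E12.5 the deepest. Pairs of libraries shared 0 to 6 cell barcodes among kept cells. At E17.5, 934 kept cells fell into clusters with the markers of pancreatic acinar, islet, mesenchymal, smooth muscle or mesothelial cells, each named with the word "like" below. They were left out of what is called epithelial here, which leaves 3475 E17.5 cells. No E12.5 cells were left out, although cluster 10 (144 cells) had the pancreatic genes Ptf1a and Cpa1 among its top genes. E12.5 cluster 12 (53 cells), with Acta2 and Col1a1 among its top genes, also stayed in. The label of intestinal epithelium was therefore met by most but not all cells. Levels are CPM, counts per 1e+06 UMIs summed over cells, with exact Poisson 95% intervals that reflect counting error alone. A group is a single library, so neither a replicate check nor a test was possible. A difference is called where log2((CPM + 1)/(CPM + 1)) is at least 1 in size, that is 2-fold, among genes that reach 10 UMIs in one of the libraries. A summed level mixes how many cells carry a gene with how much each carries.

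Between E12.5 and E17.5 the enzymes leading to citrulline were higher together. Of the 9 members, 6 were called higher at E17.5 (Otc, Nags, Cps1, Ass1, Oat and Aldh18a1) and 1 was called lower (Arg1). Of all 16733 genes compared, 13.1% were called higher and 14.5% lower. The median log2 ratio was 3.08 over the members and -0.15 over all genes.

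**Figure D1:**
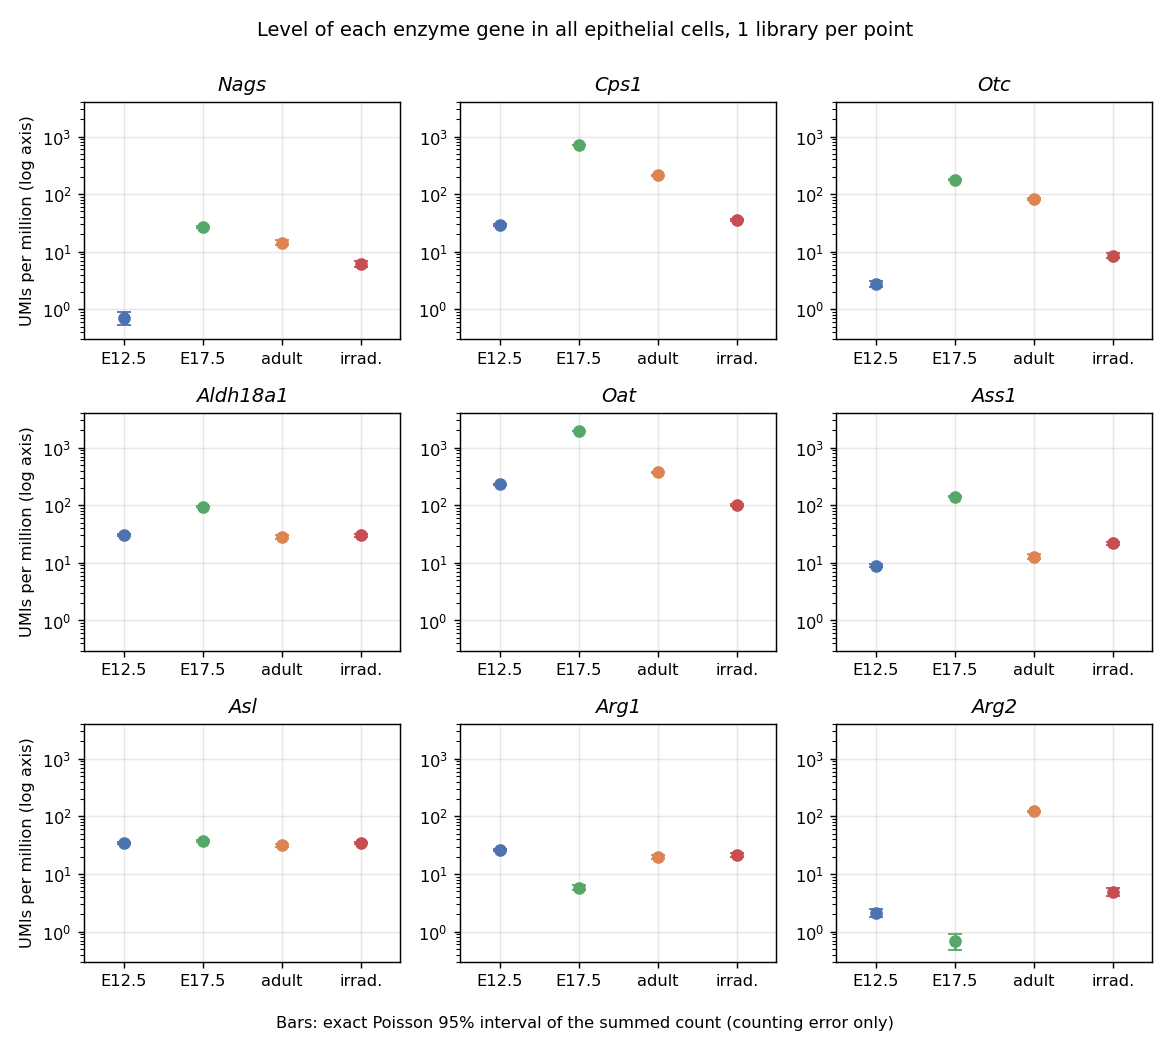
Level of each enzyme gene in all epithelial cells of the 4 libraries, in CPM on a log axis. Points are single libraries and bars the exact Poisson 95% interval. Nags, Cps1, Otc, Aldh18a1, Oat and Ass1 peak at E17.5, Asl stays between 31.5 and 37.4, and Arg2 stands out in the adult at 122.

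Of the carbamoyl phosphate and citrulline enzymes, the Otc level was 2.76 CPM (E12.5), 176 CPM (E17.5), 81.8 CPM (adult) and 8.54 CPM (irradiated). The E17.5 level was 63.8-fold that of E12.5 (interval 55.9 to 73.1). Cps1 had 29.3, 719, 211 and 35.5 CPM in the same order, and was 24.6-fold higher at E17.5 than at E12.5 (23.6 to 25.6). Both genes thus had their highest level at E17.5 and the next highest in the adult, and none of the 4 intervals of either gene overlapped another. Nags, whose product switches Cps1 on, had 0.694, 26.95, 14.4 and 6.19 CPM. It followed the same order of libraries from low counts at E12.5 (57 UMIs).

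Of the enzymes that feed ornithine, Oat (ornithine aminotransferase) had levels of 231 CPM (E12.5), 1959 CPM (E17.5), 376 CPM (adult) and 102 CPM (irradiated). Unlike Otc and Cps1, it was lower in the irradiated library than at E12.5. Aldh18a1, which makes the proline and ornithine precursor from glutamate, had 29.9, 94.95, 28.2 and 30.01 CPM. Its intervals overlapped in the 3 libraries other than E17.5.

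Of the enzymes from citrulline to arginine, Ass1 (argininosuccinate synthase) had levels of 8.98 CPM (E12.5), 142 CPM (E17.5), 12.7 CPM (adult) and 21.7 CPM (irradiated). Asl (argininosuccinate lyase), the next enzyme, had 34.3, 37.4, 31.5 and 34.6 CPM. Asl was called in none of the 3 comparisons over all epithelial cells, although Ass1 was called in both that involve E17.5.

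Summed over all epithelial cells, both arginase genes were lowest at E17.5, where the citrulline enzymes were highest. Arg1 had levels of 25.7 CPM (E12.5), 5.76 CPM (E17.5), 19.6 CPM (adult) and 21.4 CPM (irradiated). Arg2 had 2.12, 0.676, 122 and 4.90 CPM and was far above its other levels in the adult library. Arg2 was 3.13-fold lower at E17.5 than at E12.5 (2.23 to 4.50), but at these levels the added 1 CPM kept it below the call. Hepatocyte markers summed to 289 CPM at E12.5 (Tat at 0) and 39.8 CPM at E17.5 (Tat and Ahsg at 0), with 4 of 9 called lower at E17.5. A single marker gave 269 and 36.4 CPM of these sums. Arg1 is the arginase of the liver, and the part of liver RNA in its E12.5 level was not tested.

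From E17.5 to the adult, 2 members were called higher (Arg2 and Arg1) and 5 lower (Otc, Cps1, Ass1, Oat and Aldh18a1). Over all 15981 genes 12.6% were called higher and 12.6% lower. Arg2 was 181-fold higher in the adult (134 to 251.4), on 3645 UMIs against 42. Ass1 was 11.1-fold lower (10.03 to 12.3) and Oat 5.20-fold lower (5.11 to 5.31). The Otc ratio was 2.16-fold (2.06 to 2.25), and it was below the call when the non-epithelial E17.5 clusters were kept, at a log2 ratio of -0.88. The makeup of the sort differed between these libraries: enterocyte-like cells were 21.9% of E17.5 and 2.34% of adult epithelial cells. Enteroendocrine-like cells, which held 72.1% of E17.5 Arg1 UMIs, were 32.2% and 58.3%. Within that class Arg1 was not called, at 27.8 CPM (E17.5) and 22.7 CPM (adult). The adult class leaves out unnamed cluster 10, described below, which held 292 of the library's 584 Arg1 UMIs.

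**Figure D2:**
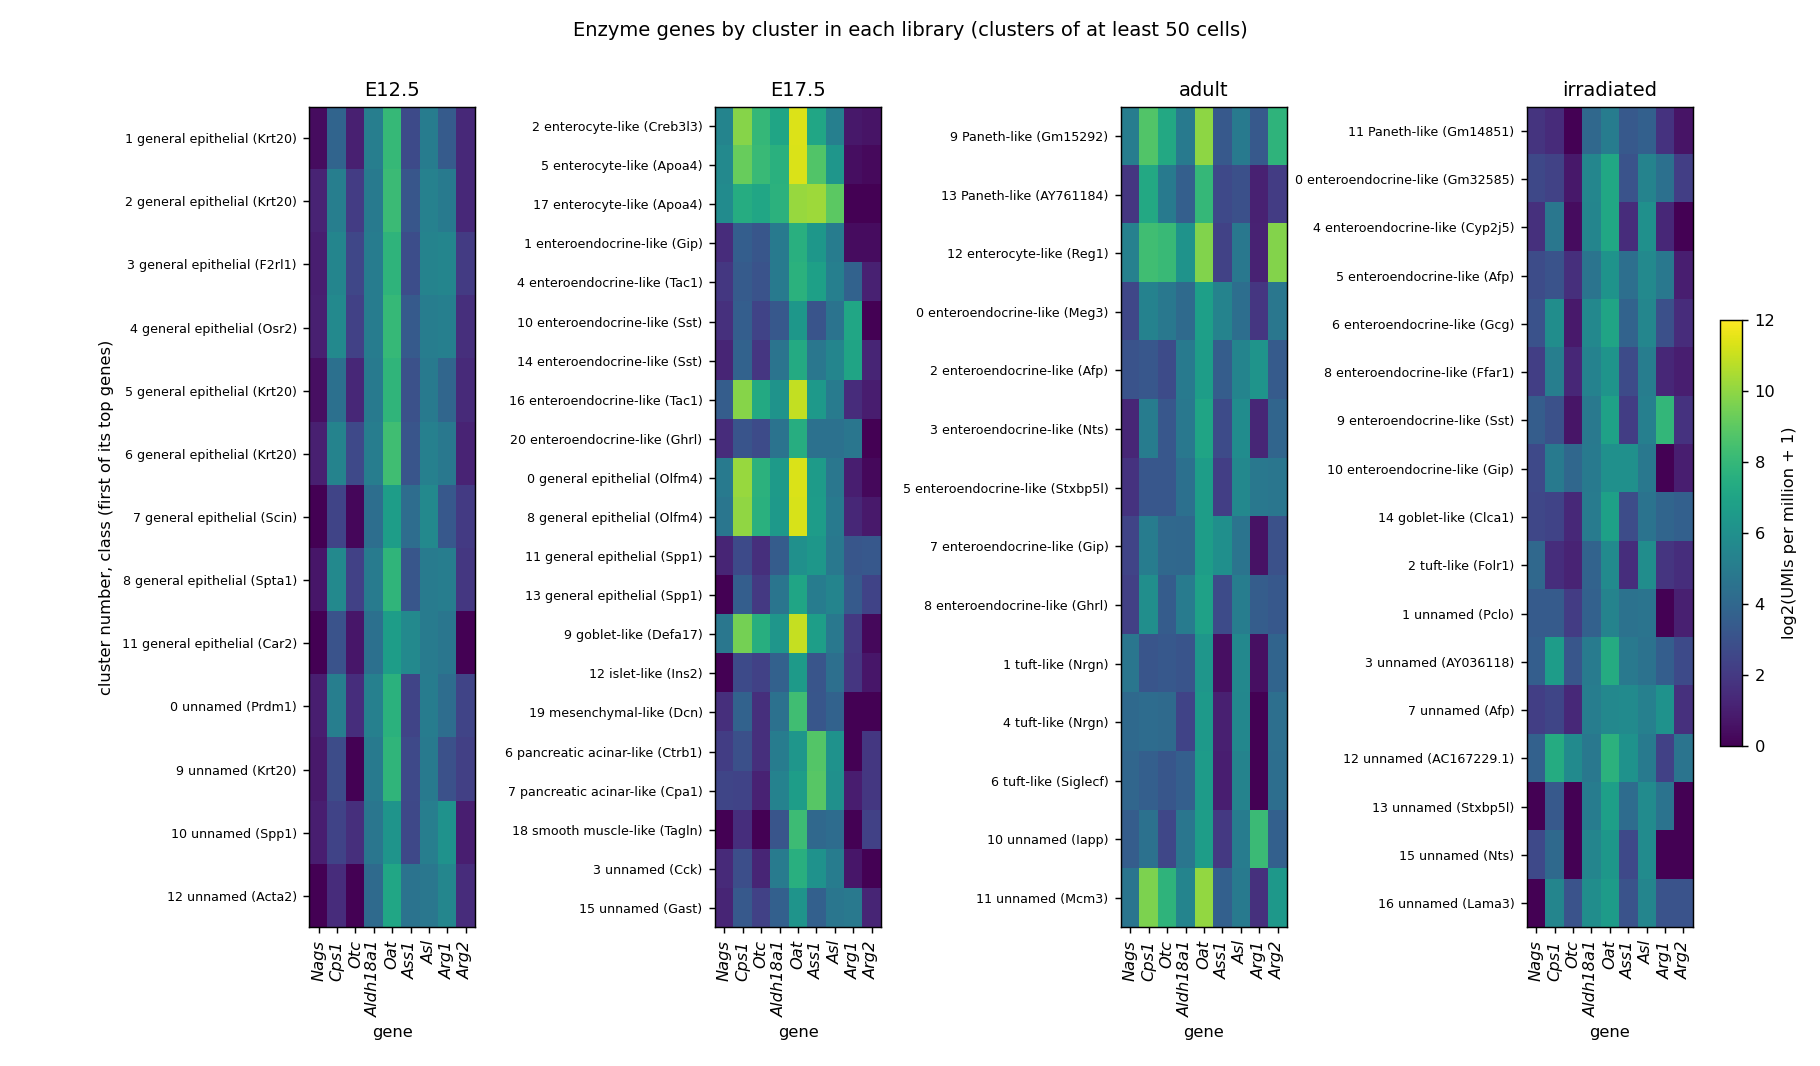
Levels of the 9 enzyme genes in each cluster of at least 50 cells, as log2(CPM + 1), 1 panel per library. Rows give the cluster number, its class and the first of its top genes in parentheses. Cps1, Otc and Oat are high together in E17.5 clusters 0, 2, 5, 8, 9 and 16, at lower levels in E17.5 cluster 17, and in adult clusters 9, 11 and 12.

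Cells were clustered within each library without the 9 members, and clusters were named from marker lists. The word "like" in a class name marks that origin. At E17.5 the enterocyte-like cells (760 cells in clusters led by genes such as Apoa4 and Lct) held 264 CPM of Otc, 763 of Cps1, 2571 of Oat, 44.6 of Nags and 266 of Ass1. Levels of the same order for Otc, Cps1 and Oat were found in the 514 cells of cluster 0, led by the crypt stem cell genes Olfm4, Ascl2 and Lgr5. That cluster had 212 CPM of Otc, 1135 of Cps1 and 2587 of Oat. The goblet-like cells of cluster 9 had 180 CPM of Otc and 723 of Cps1. The citrulline enzymes at E17.5 were thus not limited to the enterocyte-like clusters. Islet-like cells had 4.03 CPM of Otc and 5.38 of Cps1, and mesenchymal-like cells 1.32 and 7.89.

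The 3 enterocyte-like clusters of E17.5 differed among themselves in an ordered way. In clusters 2, 5 and 17, Ass1 was 137, 427 and 1204 CPM and Asl 35.4, 77.3 and 510 CPM. Cps1 ran the other way, at 900, 583 and 170 CPM, and no pair of these intervals overlapped for any of the 3 genes. Otc had 256, 276 and 136 CPM. Cluster 17 was small and shallow (87 cells, median 1591 UMIs against 29994.5 in cluster 2), and its values rest on 177 Ass1, 75 Asl and 25 Cps1 UMIs. Its part in the trend was not tested beyond the counting intervals. Clusters 2 and 5, which were both deep, differed in the same directions.

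**Figure D3:**
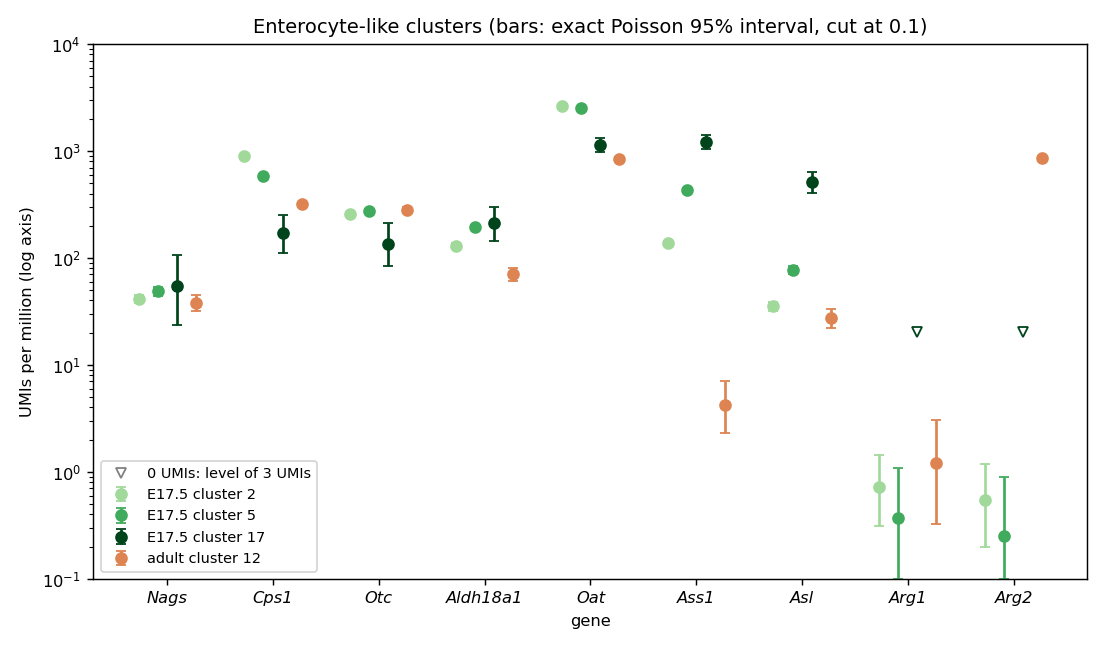
Enzyme genes in the enterocyte-like clusters of E17.5 (2, 5 and 17) and of the adult (12), in CPM on a log axis with exact Poisson 95% intervals. Open triangles mark the level of 3 UMIs where none was found. Ass1 and Asl climb from cluster 2 to cluster 17 and Cps1 descends, while the adult cluster has 861 of Arg2 and 4.19 of Ass1.

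Within enterocyte-like cells, the adult differed from E17.5 at both ends of the pathway. Arg2 had 0.415 CPM at E17.5 (8 UMIs) and 861 CPM in the adult (2876 UMIs), while Ass1 had 266 and 4.19 CPM. Otc was alike, at 264 CPM (256 to 271) and 279 CPM (261 to 297), a ratio of 1.06 (0.985 to 1.13). The members called were 1 higher (Arg2) and 5 lower (Ass1, Oat, Cps1, Aldh18a1 and Asl), with 10.6% of 12505 genes called higher and 16.2% lower. Ass1 was 63.5-fold lower in the adult (37.8 to 116) and Oat 3.07-fold lower (2.95 to 3.19). Cps1 was 2.41-fold, Aldh18a1 2.25-fold and Asl 2.07-fold lower, and Asl lay closest to the call. The adult class is a single cluster of 84 cells led by Reg1, Reg3b and Alpi, so the classes need not be at the same stage or position.

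Shares of cells showed the same contrast. After each cell was thinned to 2000 UMIs, an Arg2 UMI was found in 58 of 74 adult enterocyte-like cells, or 78.4% (exact Clopper-Pearson interval 67.3 to 87.1). At E17.5 it was found in 0 of 684, which allows a share of up to 0.439% by 3 counts and 0.538% by the exact interval. Without thinning it was found in 8 of 760 E17.5 cells, or 1.05%, and in 78 of 84 adult cells, or 92.9%. Otc was found in 40.5% of both (277 of 684 and 30 of 74). Adult tuft-like cells, which are not known for these enzymes, gave 3.58% for Arg2 and 2.65% for Otc. Median depth before thinning was 32547.5 UMIs in the adult enterocyte-like and 4083 in the tuft-like cells. Of the 9 members, a thinned cell held on average 2.95 in E17.5 enterocyte-like, 2.47 in adult enterocyte-like and 0.505 in adult enteroendocrine-like cells. At E12.5 the mean was 0.598 and no cell held over 3.

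In the adult library 2 clusters of few but deep cells held most of the Otc, Arg2, Cps1, Oat, Nags and Aldh18a1 UMIs, but not those of Ass1, Asl and Arg1. Of the library's 29808886 epithelial UMIs, cluster 11 held 5172810 and cluster 12 held 3341080. The enterocyte-like cluster 12 held 78.9% of the library's Arg2 UMIs and 38.2% of its Otc UMIs in 84 cells. Unnamed cluster 11 (104 cells, led by cell cycle genes such as Mcm3 and Mki67, with Olfm4 at 2355 CPM) held 65.8% of Cps1 and 47.0% of Otc UMIs. It held 48.2% of Oat, 29.1% of Nags and 25.95% of Aldh18a1 UMIs, where cluster 12 held 24.96%, 29.6% and 27.9%. Of Ass1 and Arg1 UMIs, cluster 11 held 16.3% and 1.88% and cluster 12 held 3.68% and 0.685%. Its levels were 800 CPM of Cps1 (776 to 825), 222 of Otc and 1046 of Oat, with Arg2 at 83.9 CPM. Cps1 was thus higher in cluster 11 than in cluster 12, and Arg2 was higher in cluster 12, at 317 and 861 CPM there. Adult Paneth-like cells fell into clusters that differed. Cluster 13 had 29.8 CPM of Otc and 3.34 of Arg2. Cluster 9, which was shallow and carried Olfm4 at 1679 CPM, had 151 and 221.

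The irradiated library was lower than the adult one for 5 members: Arg2, Otc, Cps1, Oat and Nags. None was called higher. Of 15157 genes 2.59% were called higher and 4.78% lower, and no reading is drawn from the members' count, because this contrast chose them. Arg2 was 24.9-fold lower (21.6 to 29.0), Otc 9.57-fold (8.53 to 10.8), Cps1 5.94-fold (5.60 to 6.30), Oat 3.70-fold (3.57 to 3.84) and Nags 2.32-fold (1.98 to 2.73). Ass1 was 1.70-fold higher (1.51 to 1.93), and Asl, Arg1 and Aldh18a1 were within 1.10-fold.

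The size of these differences depended on the cells compared, and the part of the cell mix was not tested. Enterocyte markers summed to 2942 CPM in the irradiated and 7797 in the adult library, with 6 of 10 called lower and none at 0. The list is not limited to enterocytes here, since its member Fabp1 stood at 21880 CPM in adult tuft-like cells, which were 26.1% of adult and 9.04% of irradiated epithelial cells. Crypt stem markers summed to 135 and 819 CPM, with 4 of 8 called lower. No irradiated cluster kept the enterocyte-like name. Irradiated cluster 12, described below, first scored as enterocyte-like (0.538, with a limit of 0.5) but was left unnamed. No enterocyte marker was among its top 10 genes, a rule set after the clusters were seen. Without the adult enterocyte-like cluster the Arg2 ratio was 5.93-fold, the Otc ratio 6.66-fold and the Nags ratio 1.84-fold, which is below the call. In enteroendocrine-like and tuft-like cells alone only Arg2 and Otc were called, and Cps1 (1.17-fold) and Oat (0.970-fold) were near equality. When each cell counted equally, as the mean of the cells' CPM, 3 members were called lower (Arg2, Otc and Cps1).

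**Figure D4:**
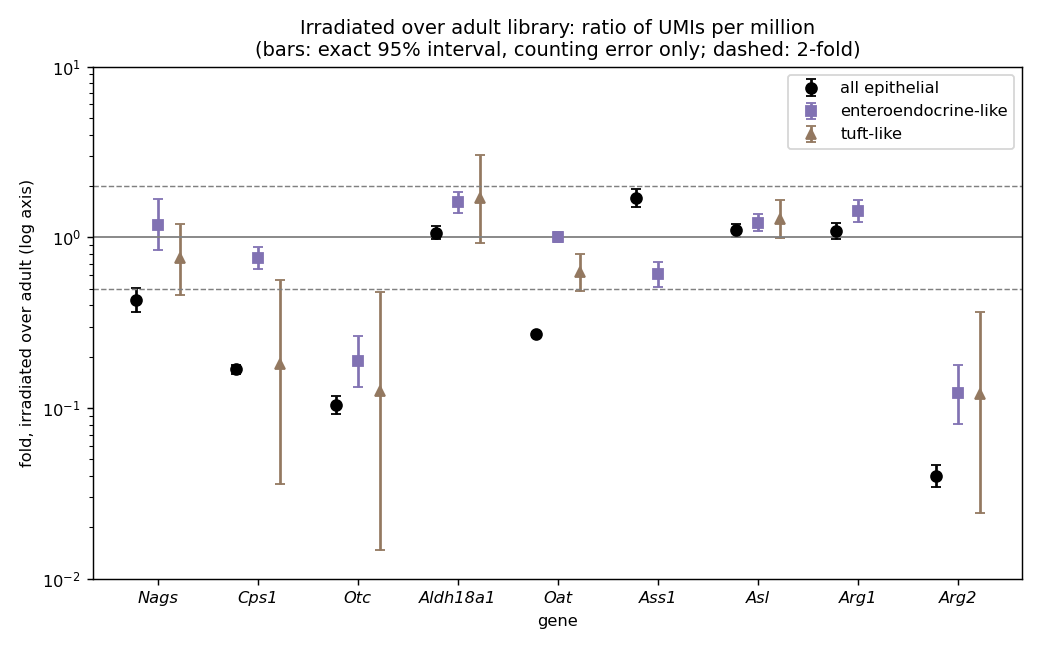
Ratio of the irradiated to the adult library for each enzyme gene, on a log axis, in all epithelial, enteroendocrine-like and tuft-like cells, with exact 95% intervals for counting error. Genes under 10 UMIs in both libraries are left out. Otc and Arg2 lie under the lower dashed line in all 3 sets, and Oat and Cps1 do so in all epithelial cells but not in enteroendocrine-like cells.

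In enteroendocrine-like cells, Otc was 12.7 CPM in the adult and 2.40 in the irradiated library, and Arg2 14.1 and 1.72. They were the 2 of 9 members called lower, none being called higher (background 3.87% lower and 2.72% higher of 14016 genes). Tuft-like cells had nearly the same pairs of values, 10.4 and 1.31 CPM for Otc and 16.3 and 1.96 for Arg2. There 3 of 7 tested members were called lower, the third being Cps1, and none higher (3.19% lower and 4.46% higher of 10167 genes). The irradiated tuft-like counts were only 2 or 3 UMIs each. The enteroendocrine-like classes differed in makeup and depth, with median UMIs of 3122.5 (adult) and 11787 (irradiated). Irradiated clusters 1, 7, 13 and 15 first scored as enteroendocrine but were left unnamed. For clusters 1, 13 and 15 the reason was low UMIs (medians 2625, 2546.5 and 2197). Shallow adult cluster 0 (median 2323) stayed in its class, with 59 of 149 Otc and 58 of 166 Arg2 UMIs. The part of this was not tested. The class totals hide differences between enteroendocrine-like clusters, whose Otc ran from 5.66 to 26.5 CPM in the adult and from 0.311 to 15.1 CPM in the irradiated library. Gip-led cluster 10 held 29 of the 46 Otc UMIs of the irradiated class. Because tuft-like cells stood at similar levels as a class, no change inside the latter is read from the totals, and the part of free RNA was not tested. Over the whole marker lists in enteroendocrine-like cells, the enterocyte sum was 2540 CPM (irradiated) beside 2600 CPM (adult), with 2 of 10 called lower. The crypt stem sum was 85.6 beside 137 CPM, with 1 of 8 called lower and 1 higher.

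In the irradiated library most UMIs of Otc, Arg2 and Cps1 lay in 1 cluster. Unnamed cluster 12 (97 cells of 3031, led by Anxa8, Aadac, Il33 and Krt15) held 81.6% of Otc, 63.2% of Arg2 and 62.5% of Cps1 UMIs. Its cells were deep, and it held 5181171 of the library's 38753466 epithelial UMIs. It held less of the other 6 members, with 41.7% of Ass1, 27.3% of Oat, 26.7% of Nags, 12.04% of Aldh18a1, 11.6% of Asl and 2.53% of Arg1 UMIs. The Aldh18a1, Asl and Arg1 shares lay below the cluster's share of all UMIs. Its levels were 52.1 CPM of Otc (46.1 to 58.7), 23.2 of Arg2 (19.2 to 27.7), 166 of Cps1 (155 to 178) and 67.7 of Ass1 (60.8 to 75.2). Otc and Cps1 were lower there than in either adult cluster 11 or 12, and Ass1 was higher than in both. The clusters differ in their leading genes, so this sets values side by side and does not compare 1 cell type. Irradiated Paneth-like cells held 0 Otc UMIs, for which 3 counts would be 0.411 CPM and the exact upper bound is 0.506 CPM, against 29.8 CPM in adult cluster 13.

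Arg1 and Ass1 levels differed between endocrine clusters, and some clusters carried both genes. Arg1 was high in clusters with the somatostatin gene Sst. At E17.5 the Sst-led clusters 10 and 14 had 136 and 129 CPM of Arg1, against 0.310 CPM in the cluster led by Gip, the gene of the gastric inhibitory peptide. The adult Sst-rich cluster 10, left unnamed because islet genes were among its top genes, had 285 CPM (253 to 320) and held 292 of the library's 584 Arg1 UMIs. In the irradiated library the Sst-led cluster 9 had 248 CPM (225 to 273) and held 51.3% of Arg1 UMIs. Sst-rich cells therefore held Arg1 in each of the 3 libraries that contained them. They were not alone, since the Afp-led adult cluster 2 had 72.5 CPM (63.2 to 82.8) and held 37.3% of Arg1 UMIs, and the Afp-led unnamed irradiated cluster 7 had 68.9 CPM and 15.7%. At E12.5 the 11 enteroendocrine-like cells had 151 CPM of Arg1, from 30 UMIs. Arg1 was itself among the top 10 genes of adult cluster 10, although it was not used to cluster.

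Cells were also split by the hormone gene directly, with no clusters, a split chosen after the clusters had been seen. Cells with Sst at 1% or more of their UMIs had 177 CPM of Arg1 (E17.5, 159 cells), 245 CPM (adult, 130 cells) and 188 CPM (irradiated, 211 cells). Enteroendocrine-like cells with neither hormone at 1% had 9.33, 34.2 and 11.0 CPM. Between 17 and 47 cells per library lay between 0.5% and 2% for Sst. At E12.5 no cell reached 1% for Sst or Gip.

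**Figure D5:**
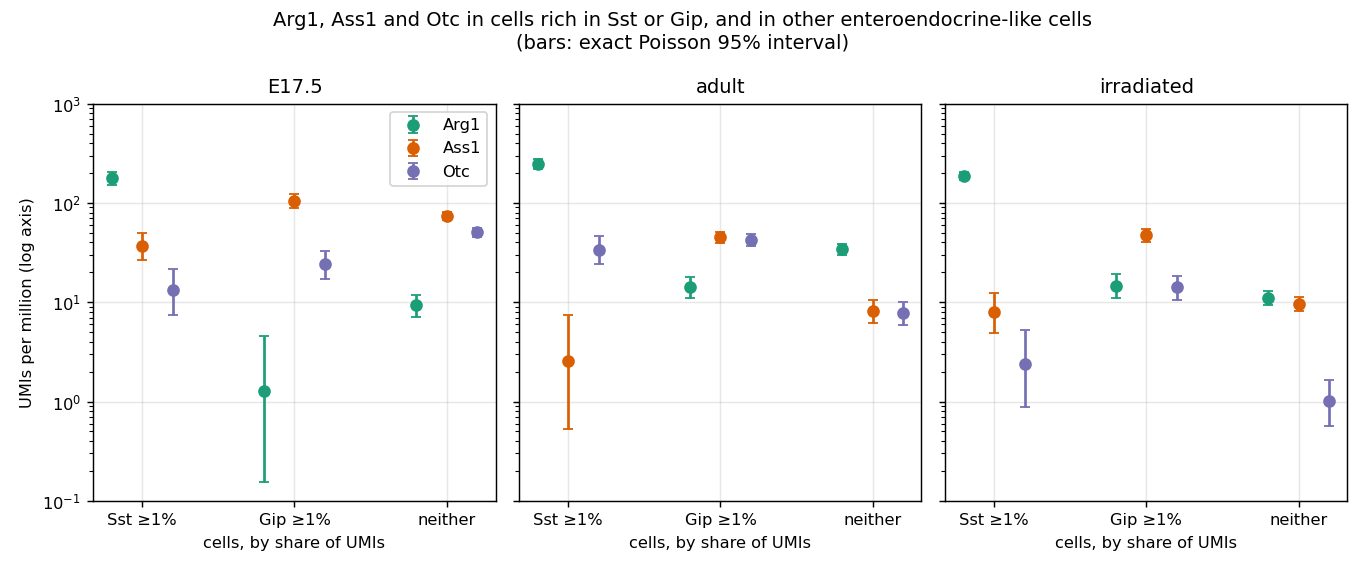
Arg1, Ass1 and Otc in cells with Sst or Gip at 1% or more of UMIs and in enteroendocrine-like cells with neither, for the 3 libraries that hold such cells. Sst-rich and Gip-rich cells were taken from all epithelial cells, the cells with neither from the enteroendocrine-like class only. Points are CPM of summed cells on a log axis, with exact Poisson 95% intervals. Arg1 is high in Sst-rich cells in all 3 libraries (177, 245 and 188), and Ass1 is higher in Gip-rich than in Sst-rich cells.

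Ass1 was high in Gip-led clusters. Adult cluster 7 had 63.0 CPM of Ass1 (52.5 to 74.9), and irradiated cluster 10 had 63.9 CPM (53.1 to 76.2). The Sst-rich clusters of these libraries had 2.93 and 3.49 CPM. Ass1 was not limited to clusters led by Gip. The Meg3-led adult cluster 0 had 40.9 CPM, and the Afp-led unnamed irradiated cluster 7 had 51.9 CPM. Adult cluster 0 may hold Gip-rich cells, since 1163 adult cells had Gip at 1% or more of UMIs and adult cluster 7 held 164 cells. Those Gip-rich cells held 58.4% of adult Ass1 UMIs. Irradiated cluster 7 also held Arg1, at 68.9 CPM. At E17.5 the Gip-led cluster 1 had 81.6 CPM (72.01 to 92.04), but the Tac1-led cluster 4 had more, at 111 CPM (96.4 to 128). Otc was present in the Gip-led clusters too, at 15.7 CPM (10.8 to 22.2) for the adult and 15.1 CPM (10.1 to 21.6) for the irradiated one. In the irradiated library the other enteroendocrine-like clusters had 0.311 to 2.08 CPM. In the adult they had 5.66 to 26.5 CPM, so the adult Gip-led cluster did not stand out. Otc in adult cluster 7 and irradiated cluster 10 therefore differed by less than counting error, unlike its total over all cells. Unnamed irradiated cluster 1 (303 cells), led by Pclo with Gip among its top genes, had less Otc. Its level was 3.32 CPM (0.684 to 9.69, from 3 UMIs). Split by Gip at 1% of UMIs over all epithelial cells, the Otc values were apart, at 42.3 CPM (adult) and 14.1 CPM (irradiated). The adult Gip-rich cells held 209 Otc UMIs, beside 149 in the whole adult enteroendocrine-like class. Part of their Otc therefore lay in cells outside that class. That adult split took 1163 cells with a median of 2456 UMIs, and 387 adult cells lay between 0.5% and 2%.

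In enteroendocrine-like cells as a class, the adult had 1 member called higher than E17.5 (Arg2) and 4 lower (Otc, Cps1, Ass1 and Oat), with 11.9% of 13971 genes called higher and 14.6% lower. This count rested on 1 cluster. E17.5 cluster 16 (97 cells, with Tac1 and Chgb but also Olfm4 at 253 CPM) had 916 CPM of Cps1, 156 of Otc and 1903 of Oat, levels near those of the Olfm4-led cluster 0. Without it, 1 member was called lower (Ass1, 2.97-fold) and 2 higher (Arg2 and Cps1), and Otc and Cps1 turned to 6.84 and 10.7 CPM at E17.5 against 12.7 and 29.5 in the adult.

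At E12.5 Otc, Nags and Cps1 stood at low library levels, and Cps1 and Ass1 differed between clusters. Clusters 2, 3, 4, 6 and 8, with Osr2 among their top genes, had 33.8 to 49.7 CPM of Cps1 and 6.12 to 9.71 of Ass1. Clusters 7 and 11, with the posterior genes Hoxb9 and Hoxb13 among their top genes, had 4.50 and 7.38 CPM of Cps1 and 18.5 and 49.7 of Ass1. Cps1 was thus lower, and Ass1 higher, in the clusters with posterior genes than in those with Osr2, with no overlap of intervals. Neither low Cps1 nor high Ass1 was limited to the posterior clusters. Ass1 was also 22.4 CPM in cluster 12 (11.6 to 39.1, 12 UMIs) and 35.2 CPM in the 11 enteroendocrine-like cells (7 UMIs). Of the other clusters over 50 cells, 1, 9, 10 and 12 had 13.7, 6.01, 4.37 and 1.87 CPM of Cps1. Clusters 0 and 5 had 34.2 and 20.5 CPM. Otc was at 1 UMI in each of the clusters 7 and 11. Cluster 10, led by Spp1 and the pancreatic gene Ptf1a, had the highest Arg1 level of the E12.5 clusters over 50 cells at 67.6 CPM (58.6 to 77.7), and it also held Alb, a liver gene, at 65.6 CPM.

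Beyond the members, 46 other genes of arginine, ornithine and polyamine metabolism were listed, of which 45 are in the files. At E17.5 against E12.5, 9 of 44 tested were called higher and 7 lower, beside 13.1% and 14.5% of all genes. Higher genes included Slc25a15 (the mitochondrial ornithine carrier, 67.2 against 11.7 CPM) and the cationic amino acid transporter pair Slc7a9 (99.2 against 3.38 CPM) and Slc3a1 (45.4-fold). Agmat, annotated as agmatinase, was 514-fold higher (312 to 920), from 15 UMIs at E12.5. Lower genes included Ddah2, which degrades methylarginines (12.7-fold), Cad, of pyrimidine synthesis (2.90-fold), and the transporter gene Slc7a6 (3.04-fold).

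From E17.5 to the adult, 3 of 42 were called higher and 12 lower, beside 12.6% of all genes each way. The higher were Azin2 (6.68-fold), Glul, glutamine synthetase (2.67-fold), and Slc7a1, an arginine transporter (2.19-fold). The lower included Ddah1 (8.48-fold), the aspartate and glutamate carrier Slc25a13 (8.45-fold) and Gamt, of creatine synthesis (5.75-fold). In the irradiated against the adult library 0 of 41 were called higher and 4 lower, beside 2.59% and 4.78% of all genes: Agmat (3.79-fold), Slc7a9 (2.68-fold), Prodh, proline dehydrogenase (2.59-fold), and Slc25a15. The list's median log2 ratio was -0.04 there, the same as over all genes.

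The genes whose levels ran most like Otc over the 21 library-by-class groups of at least 50 cells were H2-T3 (Pearson r 0.97), Pycard (0.96), Ccl25 (0.96), Nlrp6 (0.95) and Aadac (0.95). Among the members, Cps1 had r 0.95 with Otc, Oat 0.85 and Nags 0.76, but Arg2 had 0.41, Ass1 0.32, Asl 0.11 and Arg1 -0.01. The genes most like Arg2 were Car4 (0.93), Apol10a (0.93), Rbp7 (0.92), Ces1f (0.91) and H2-DMb1 (0.90). Groups of 1 library share its depth and free RNA, so these values describe the groups and carry no p. The closest neighbours of Otc and of Arg2 were different genes.

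By position in GRCm38, the build that carries the files' gene IDs, Otc lies on chromosome X from 10252305 to 10321024 (+). Arg2 lies on chromosome 12 from 79130777 to 79156301 (+), Cps1 on chromosome 1 from 67123026 to 67231259 (+) and Ass1 on chromosome 2 from 31470207 to 31520672 (+). Oat lies on chromosome 7 from 132557478 to 132576398 (-), Arg1 on chromosome 10 from 24915221 to 24927484 (-) and Asl on chromosome 5 from 130011258 to 130029247 (-). Nags lies on chromosome 11 from 102145513 to 102149477 (+) and Aldh18a1 on chromosome 19 from 40550257 to 40588463 (-). All 9 are on different chromosomes.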

How the data were processed

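Single-cell RNA was measured in 4 libraries, 1 per group. The authors deposited raw UMI counts per gene and barcode, made with Cell Ranger 3.1.0 on mm10, per the submitters' processing notes. The annotation and the rule that selected barcodes are not given in the sources used here. Of 31054 feature IDs, 31011 matched GENCODE M21 (GRCm38, the mm10 assembly), including all 9 members. Total counts were 38648331 to 90674425 UMIs per library.

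The members and lists were chosen with earlier results of these data known. Cells were kept from 500 genes and up to 20% of UMIs in mitochondrial genes, and the highest Scrublet scores (scanpy 1.11.5) were removed at 0.8% per 1000 barcodes. Each library was clustered alone on 2000 variable genes without the members, 30 principal components, 20 neighbours and Leiden resolution 1 (leidenalg 0.10.2). Clusters were named from 18 marker lists by their mean scaled level (at least 0.5) and at least 3 detected markers. Naming thresholds, and the reasons to leave a cluster unnamed (median UMIs under the library's divided by 3 without an own marker among the top 10 genes, top genes led by another class, no own marker outside the endocrine class), were set after the clusters were seen. Unnamed clusters stayed among epithelial cells.

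Levels, folds (exact conditional 95% intervals) and shares (cells thinned to 2000 UMIs, shallower cells left out: 151 to 646 per library) were computed in python 3.11.15 with scipy 1.17.1. A count of 0 is given the limit of 3 counts. All members are named. Of the listed pathway genes, those called with the 3 largest log2 ratios each way are named, with Slc25a15 added after its values were seen. Genes like Otc and Arg2 are the 5 with the highest correlation among genes with at least 200 UMIs, predicted, mitochondrial and ribosomal genes left out. The level, fold and interval steps were run on simulated Poisson counts, the model that the intervals assume. Doublet removal, clustering, naming, shares and correlations were not simulated. Alternatives, including edgeR 4.0.16 TMM factors, are given in the closing section. Promoter sequences are from RefSeq (GRCm38.p6), matched by symbol; Arg1, Arg2, Asl and Cps1 had no entry.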

Additional observations from a re-analysis of the deposited data

Results flagged for a closer look

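The pancreatic acinar-like cells of E17.5 (535 cells, left out of the epithelial cells) held signal of 3 members above the epithelial level of the same library. Ass1 was 459 CPM there (443 to 475), against 142 CPM in the epithelial cells. Asl was 65.3 CPM (59.4 to 71.6), against 37.4 CPM. Arg2 was 2.86 CPM (1.75 to 4.42), against 0.676 CPM. In the same cells Otc had 1.57 CPM and Cps1 5.30 CPM. The labels name the library as intestinal epithelium, and the route by which these cells entered it was not tested.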

How the results depend on the processing

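Alternatives for the 3 comparisons over all epithelial cells were doublets kept, every barcode, a stricter cell filter, TMM factors, cells weighed equally (their mean CPM), mitochondrial and ribosomal or Defa genes left out of the total, other pseudocounts and count minimums, and all kept cells. Counts of called members moved by over 1.5 times as follows, and the cause was not tested. For E17.5 over E12.5 the 1 lower member became 0 when cells weighed equally (Arg1 at -0.82), and 2 with mitochondrial and ribosomal genes left out or a pseudocount of 0.1 CPM, Arg2 being added. For adult over E17.5 the 2 higher became 1 when cells weighed equally or a pseudocount of 10 CPM (Arg1 lost). For irradiated over adult the 5 lower became 3 when cells weighed equally. The count became 2 in enteroendocrine-like and tuft-like cells only, where Oat turned to 0.0436. For adult over E17.5 in enteroendocrine-like cells the 4 lower became 1 at resolution 0.5 (Otc 0.70, Cps1 0.89), 2 with the members kept among the variable genes (Otc 0.42, Cps1 0.85) and 1 without the E17.5 Olfm4-high cluster (Otc 0.80, Cps1 1.37), which also made the higher count 2. These are log2 ratios. The alternatives on cell sets (without the Olfm4-high or the adult enterocyte-like cluster, and enteroendocrine-like and tuft-like cells only) were chosen after seeing the data. Over the remaining alternatives, 89 counts stayed within 1.5 times. At resolution 0.5 no enterocyte-like comparison could be made. Of shares thinned to 1000 or 4000 UMIs or not thinned, 103 left the interval of the main value and 5 did not. No paired analysis was possible because each group has 1 library. Depth limited the tuft-like comparison, at 2 or 3 irradiated UMIs for Otc, Arg2 and Cps1.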

Other observations

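Oat was measured in cells outside the epithelium where the counts of Otc and Cps1 were low. At E17.5 mesenchymal-like cells had 321 CPM of Oat (282 to 364) and smooth muscle-like cells 288 CPM (253 to 326), against 92.6 CPM in pancreatic acinar-like and 91.4 CPM in islet-like cells. Otc stood at 1 and 2 UMIs and Cps1 at 6 and 3 UMIs in the mesenchymal-like and smooth muscle-like cells.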
